A study of Mus musculus with 12 samples.

Results

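Transcript levels of the late night were set against those of the late day, as ZT21 minus ZT9, in the prefrontal cortex, the mice being C57BL/6J. Zeitgeber time (ZT) counts hours from lights on, so the 2 times lie 9 hours after lights off and 9 hours after lights on. The comparison rests on 6 of the 12 arrays of the series, those labelled ZT21 and ZT9 with replicates 1 to 3. Of the 45037 probe sets on the array the 54.5% with the highest mean were compared, and they are called measured here. The other 6 arrays are ZT3 and ZT15, which stood in the same fit and gave the second pair of times, ZT15 minus ZT3. All mice were wild type, obtained at 10 weeks of age, acclimatized and entrained before sampling, and kept in 12 hours of light and 12 hours of dark (LD 12:12) with free access to food and water. Each array held the RNA of 1 mouse, with no pooling, and by the methods of the study the replicates are separate animals. Brains taken at ZT21 were removed under red light and those taken at ZT9 were not, so that lighting at dissection and time of day cannot be told apart. The tissue holds all the cells of the cortex, and fewer cells of a type and less RNA per cell cannot be told apart in such a sample. Neither sleep nor activity was recorded in the sources used here.

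The molecular clock is a loop in which Arntl (Bmal1) with Clock or Npas2 binds E-box sequences and drives the Per, Cry, Nr1d and Ciart genes, whose products then hold that drive back. Nr1d1 and Nr1d2 also repress Arntl, through elements of the kind TAGGTCA, so that Arntl and the genes driven from E-boxes are usually high at opposite times. Mice are active mainly at night, and neurons that are active switch on genes such as Homer1, Bdnf and Egr3 through CREB and other factors, CREB by binding the CRE element TGACGTCA or its part TGACG. Corticosterone, the glucocorticoid of the mouse, is released in a daily rhythm and acts through its receptor on genes such as Fkbp5 and Sgk1.

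The promoter sequences of the genes that the results turn on are shown here, because the clock and activity genes are known for the elements they carry. They are Homer1, the 1 gene past an adjusted p of 0.05, and 3 of the 4 core clock genes with the smallest p, and in each window the capitals mark the matches to the elements searched. The sequences are RefSeq windows of build GRCm38.p6 running 5′ to 3′ on the strand of the gene, from 250 bases before an annotated start to 50 bases from it on. Homer1 is drawn at chr13:93303507-93303806 (plus strand), and its capitals mark TGACG. Ciart is at chr3:95882179-95882478 (minus strand) and Tef at chr15:81802423-81802722 (plus strand), and their capitals mark the E-box CACGTG. Arntl is at chr7:113207261-113207560 (plus strand), and its capitals mark TAGGTCA.
Homer1: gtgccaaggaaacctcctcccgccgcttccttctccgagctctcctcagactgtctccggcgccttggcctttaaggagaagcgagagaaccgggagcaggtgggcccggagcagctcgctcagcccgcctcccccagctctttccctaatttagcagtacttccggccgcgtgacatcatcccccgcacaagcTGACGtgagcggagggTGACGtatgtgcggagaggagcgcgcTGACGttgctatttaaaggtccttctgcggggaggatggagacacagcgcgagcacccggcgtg
Ciart: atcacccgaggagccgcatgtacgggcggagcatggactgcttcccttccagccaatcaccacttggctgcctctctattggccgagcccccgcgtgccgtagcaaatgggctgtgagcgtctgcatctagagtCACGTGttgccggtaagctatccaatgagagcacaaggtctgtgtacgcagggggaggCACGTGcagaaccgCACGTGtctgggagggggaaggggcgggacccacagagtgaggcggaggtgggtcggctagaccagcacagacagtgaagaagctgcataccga
Tef: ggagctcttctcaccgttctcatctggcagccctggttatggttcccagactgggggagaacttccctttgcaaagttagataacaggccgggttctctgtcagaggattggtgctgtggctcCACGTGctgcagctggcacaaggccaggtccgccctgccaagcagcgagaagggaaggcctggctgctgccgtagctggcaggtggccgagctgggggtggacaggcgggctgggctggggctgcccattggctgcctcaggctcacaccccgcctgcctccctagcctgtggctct
Arntl: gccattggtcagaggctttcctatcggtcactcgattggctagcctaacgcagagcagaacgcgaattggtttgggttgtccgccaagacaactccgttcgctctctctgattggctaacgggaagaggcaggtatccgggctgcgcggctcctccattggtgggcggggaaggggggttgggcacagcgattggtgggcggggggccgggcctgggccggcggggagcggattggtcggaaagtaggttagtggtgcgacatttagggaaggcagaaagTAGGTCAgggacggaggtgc

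Both strands were searched for CACGTG, TGACGTCA, its part TGACG, TTATGTAA (the D-box), GAANNTTC (a heat shock element) and TAGGTCA, and a match is a description of the letters, not evidence that a factor binds. Homer1 held TGACG beginning 56, 40 and 14 bases before the start, a 5-letter run that 20.8% of the 32851 windows in the table hold at least once, and it did not hold the whole TGACGTCA (1.79% of windows). Ciart held CACGTG beginning 116, 58 and 44 bases before its start, Tef once at 127 bases, and 7.15% of all windows hold it. The TAGGTCA of Arntl began at base 31 of the transcript, and 2.61% of all windows hold that run. Homer1, Tef and Arntl have 2 windows each among those searched, of which the 1 holding the most matches, or the first, is shown. The Arntl gene begins at 113178471, upstream of both of its windows, and no window there was searched. The other window of Tef held CACGTG too, that of Homer1 held GAANNTTC (7.86% of windows), and that of Arntl held none of the 6. The 2 Arntl windows overlap, the other running from 113207215 to 113207514, and it ends before the TAGGTCA. Nr1d2, the other of the 4 clock genes, held none of them in its window, and TTATGTAA (0.938% of windows) was in none of those searched here.

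ZT9 and ZT21 differed by little in most transcripts, and the leading difference was Homer1, a scaffold protein of the postsynaptic density that exists in long forms and in a short form induced by neuronal activity. Its probe set had log2 intensities of 8.32, 7.95 and 7.87 at ZT9 and of 10.35, 10.52 and 9.86 at ZT21. All 3 night values lay well above all 3 day values. The difference was 2.20 (standard error 0.17), or 4.59-fold, with an adjusted p of 0.000519 from limma. The probe set of Homer1 was the 1 of all tested (0.00407%) that passed an adjusted p of 0.05 in this comparison. Over the day its mean was lowest at ZT9, 8.04 ± 0.24 (SD, n = 3), and highest at ZT15, 11.41 ± 0.12. In between lay ZT21 with 10.24 ± 0.34 and ZT3 with 10.56 ± 0.09, a pair that differ by less than the SD of ZT21. Homer1 has 5 further probe sets on the array, and their differences ran from 0.02 to 0.65 (adjusted p = 0.244 to 0.979), all of them above 0. The annotation used here does not say which form of Homer1 each probe set measures. Homer1 spans chromosome 13 from 93303757 to 93405129.

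At the threshold of 0.20 that the study used for its false discovery rate, 10 probe sets passed (0.0407% of those tested), 9 of them higher and 1 lower at ZT21. Each is from a different gene. The arrays of the 2 times did not overlap in any of them, which the choice by this same pair in part fixes. Among all genes 5.89% did not overlap with ZT21 above and 5.47% with ZT21 below. The 1 lower at ZT21 was Wdr6, which encodes a protein of WD repeats. It read 11.61, 11.22 and 11.33 at ZT9 against 10.40, 10.46 and 10.71 at ZT21, a difference of -0.87 (standard error 0.12, adjusted p = 0.135 from limma). Wdr6 stood out at ZT9 alone, since its means at ZT3 and ZT15 were 10.26 and 10.52, and that of ZT21 also 10.52. A second probe set of Wdr6, of a kind whose probes can match other transcripts, gave a difference of -0.71 (adjusted p = 0.244).

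Among the higher transcripts were a pair of genes of vessels and lysosomes. Gla, the lysosomal enzyme alpha-galactosidase A, read 5.99, 5.80 and 6.15 at ZT9 and 7.37, 7.19 and 7.41 at ZT21. That is a difference of 1.34 (standard error 0.19, adjusted p = 0.135), and the second tested probe set of Gla differed by 0.16 (adjusted p = 0.619). Cldn5, the main claudin of the tight junctions that seal brain vessels, read 8.58, 8.32 and 7.91 at ZT9 and 9.28, 9.27 and 9.43 at ZT21. Its difference was 1.06 (standard error 0.16, adjusted p = 0.161), and the night arrays were close together while the day arrays spread over 0.34 (SD). The other 7 measured endothelial markers were split. Tek and Esam were higher by 0.28 and 0.23 and Slco1a4 differed by -0.33 at an unadjusted p under 0.05, and the remaining 4 did not pass. With single arrays left out the list gave 1 to 3 higher and 0 to 2 lower. The mean level of all 8 lay between 7.57 and 7.81 at ZT9 and between 7.72 and 7.88 at ZT21.

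The other transcripts that passed at 0.20 were higher at ZT21 than at each of the other times. Cd99, a glycoprotein of the cell surface, read 7.82, 7.44 and 7.72 at ZT9 and 8.51, 8.70 and 8.34 at ZT21 (difference 0.85, standard error 0.13, adjusted p = 0.161). All 3 of its probe sets were higher at ZT21, by 0.76 to 0.90, though 2 of them are of the kind that can match other transcripts. Lrrc4c, a netrin-G ligand that acts in synapse formation, read 9.06, 9.18 and 8.83 at ZT9 and 9.80, 9.91 and 9.73 at ZT21 (difference 0.79, standard error 0.13, adjusted p = 0.193). Its brightest probe set went the other way without passing (difference -0.32, adjusted p = 0.449). Fgfbp3, which binds fibroblast growth factors, read 7.29, 6.88 and 6.84 at ZT9 and 8.15, 7.88 and 7.86 at ZT21, a difference of 0.96. Bcar3, an adaptor protein of integrin signalling, read 7.89, 7.87 and 7.97 against 8.46, 8.45 and 8.57, a difference of 0.59 with little spread at either time. Flywch2 and BC004004 were higher by 0.56 and 0.58. BC004004 has 4 brighter probe sets, which differed by 0.01 to 0.13 (adjusted p = 0.664 to 0.985). Over the 10, 8 had their highest mean at ZT21, 1 at ZT9 (Wdr6) and 1 at ZT15 (Homer1), which their choice by this pair in part fixes.

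**Figure D1:**
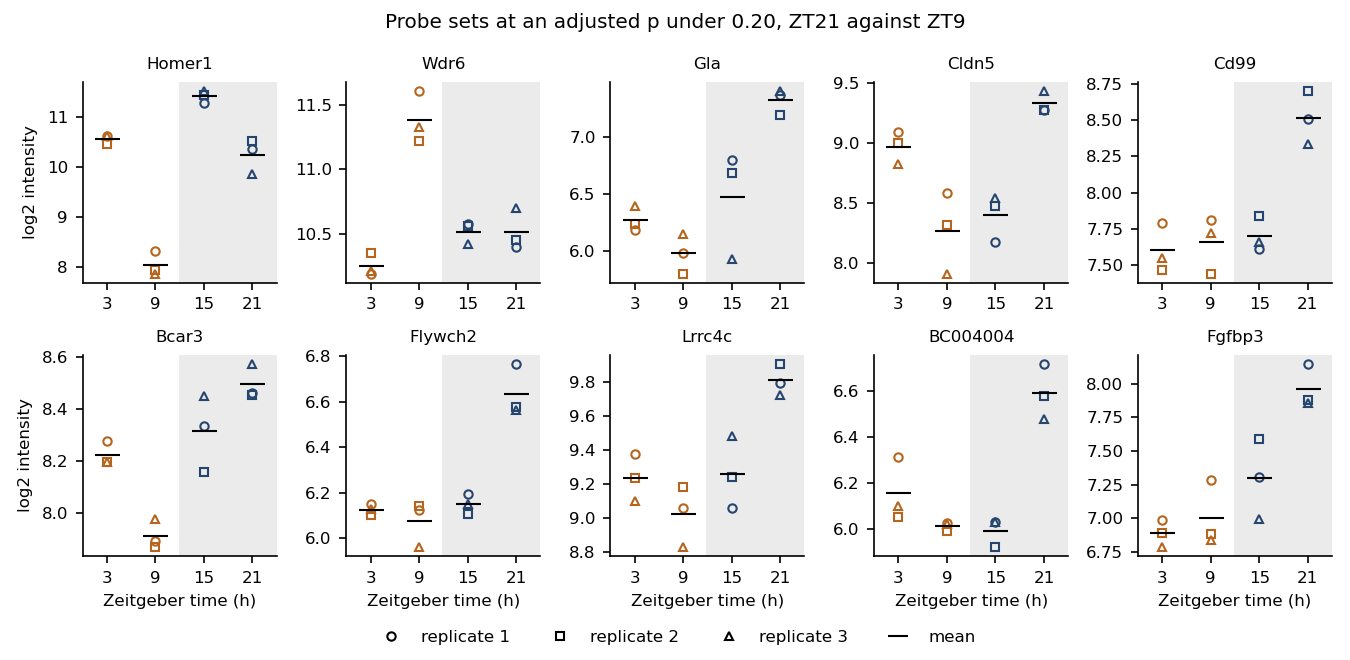
log2 intensity (y axis) by Zeitgeber time in hours (x axis, dark hours shaded) of the 10 probe sets at an adjusted p under 0.20 between ZT21 and ZT9. Points are single mice, marked by replicate, and bars are means of 3. In each panel the points of ZT9 and ZT21 do not overlap, which the choice of the probe sets in part fixes. Homer1 is lowest and Wdr6 highest at ZT9.

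By an unadjusted p under 0.05, 1027 probe sets were higher at ZT21 (4.18%) and 2226 lower (9.07%). With arrays set to the same distribution by quantile normalization the counts were 1874 and 1972, so that the share higher among them went from 31.6% to 48.7%. With arrays centred on their median they were 968 and 2117, a share of 31.4%. The excess of lower over higher transcripts was thus small after the first of these scalings and stayed after the second, and quantile normalization shifted the median of all probe sets from -0.02 to 0.01. Counted by gene, through the brightest probe set of each of 11791 genes, 538 were higher (4.56%) and 874 lower (7.41%), with a median difference of -0.01. The arrays of the 2 times did not overlap with ZT21 above in 5.89% of genes and with ZT21 below in 5.47%. Differences were small: the median size was 0.13 on the log2 scale over probe sets, and 20 probe sets were higher and 18 lower by 1 or more. These shares are the background for the counts given of each gene list, in which nothing passed an adjusted p of 0.20 unless it is said.

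The largest differences among named genes, by an unadjusted p under 0.05 and arrays that did not overlap, were in genes of varied function. Crh, corticotropin-releasing hormone, which in the cortex is made by interneurons, read 8.43, 8.52 and 8.07 at ZT9 and 9.33, 9.36 and 9.33 at ZT21. Its difference was 1.00 (standard error 0.18, adjusted p = 0.226), and the SD of the night arrays was 0.02. Gjb1, connexin 32 of oligodendrocyte gap junctions, was higher by 1.42 and its second probe set by 0.74 (adjusted p = 0.228 for both). Alb, serum albumin, had the highest difference after Homer1, 1.70 (standard error 0.43), but it read 7.42, 6.80 and 6.40 at ZT9 and 7.44, 9.51 and 8.75 at ZT21. Replicate 1 of ZT21 was thus at the level of replicate 1 of ZT9. Car3, a carbonic anhydrase, was higher by 1.17, Cttnbp2, a cortactin-binding protein of dendritic spines, by 1.18, Scn2b, a beta subunit of sodium channels, by 1.06 and Prkcb, protein kinase C beta, by 1.02. Cttnbp2, Scn2b and Prkcb rest on 1 probe set each, since their other probe sets lay between -0.22 and 0.04. The adjusted p of Scn2b was 0.361, the highest of the 12. Gm21953 and Gm266 were higher by 1.19 and 1.02, and Gm266 by 0.67 without replicate 3 of ZT9. Prkcb, Gm21953 and Gm266 are faint by these probe sets, with means of 4.67, 4.61 and 4.69 at ZT9. Gjb1, by the probe set that differed by 1.42, had a mean at ZT9 that was lower still. All of these means lie below the lowest mean tested, so that the size of these differences is uncertain. The second probe set of Gjb1 lay above that level at every time.

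On the lower side the leading genes were Gpc4, a glypican of the cell surface (difference -1.29), Htr2c, the serotonin 2C receptor (-1.28), and Pkia, an inhibitor of protein kinase A (-1.16). Htr2c read 7.23, 7.60 and 7.54 at ZT9 and 5.68, 6.51 and 6.35 at ZT21 (standard error 0.26, adjusted p = 0.228). Its second probe set was also lower, with a difference of -0.82 (adjusted p = 0.277). Without replicate 3 of ZT9, the array with the highest level of Ttr (transthyretin, described with the marker lists), the difference of Htr2c was -1.23. Pkia read 10.13, 10.70 and 10.37 at ZT9 and 9.06, 9.07 and 9.60 at ZT21 (standard error 0.22, adjusted p = 0.228). Gabrg1, a subunit of GABA-A receptors, differed by -1.10, Slc25a30, a carrier of the mitochondrial membrane, by -1.08, Rabgap1l, which acts on Rab GTPases, by -1.01 and Cpd, carboxypeptidase D, by -0.94. Relch, Tmem255a, Klhl28, Mid1 and Zfp157 made up the 12, between -1.06 and -0.94. Gpc4 and Mid1 have 1 tested probe set each. The brightest probe set of each of the other 10 is not the one named here, and it differed by -0.82 in Htr2c and by -0.46 to -0.04 in the other 9, passing the unadjusted p in Htr2c, Slc25a30, Rabgap1l and Cpd. Relch, Tmem255a, Rabgap1l and Cpd also have 1 probe set each above 0, by 0.08 to 0.15. Without replicate 1 of ZT21 the difference of Relch was -0.71, and without replicate 2 of ZT9 that of Klhl28 was -0.62. Klhl28 by this probe set is faint, with a mean of 4.60 at ZT21, where the lowest mean tested was 4.87. By the probe sets named here, replicate 1 read lowest at ZT9 in Htr2c, Pkia, Relch, Rabgap1l, Klhl28 and Cpd. In the same genes replicate 3 read lowest at ZT15, while Gpc4 and Mid1 read highest in replicate 1 of ZT9. The Actb log2 ratio, given with the marker lists, was 0.95 in replicate 1 of ZT9 and 0.84 in replicate 3 of ZT15. At ZT21 it was 0.79 to 0.88. The 12 genes stayed lower at ZT21 with that ratio as a covariate and without the 3 arrays where it was highest. How much of each difference goes with the ratio was not tested. Of the 12 genes on this side 11 had their highest mean at ZT9, and of the 12 on the other side 10 had it at ZT21, a count that the choice of the pair in part fixes.

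Core clock genes differed between ZT9 and ZT21 by less than 1 in their brightest probe sets, with Arntl and Npas2 higher and Ciart, Tef, Nr1d2, Dbp and Per3 lower at ZT21. Of 21 measured, 2 passed as higher (9.52%) and 5 as lower (23.8%) at an unadjusted p under 0.05. The median difference was -0.07, and it lay at 0.00 after quantile normalization, at 0.06 without replicate 2 of ZT9 and at 0.01 without replicate 1 of ZT21. The lower count was 2 without replicate 2 of ZT21 and 3 without replicate 2 of ZT9 or replicate 1 of ZT21, and the higher count was 1 without replicate 1 or 3 of ZT21 or replicate 2 of ZT3. Arntl read 7.66, 7.41 and 7.16 at ZT9 and 8.07, 7.77 and 8.09 at ZT21. The night values were all above the day values, by 0.57 on average (standard error 0.15, adjusted p = 0.244 from limma). Npas2, which can take the place of Clock beside Arntl, was higher by 0.25 (standard error 0.11, adjusted p = 0.348), and by 0.16 without replicate 3 of ZT9. Clock itself, at 9.02 ± 0.33 and 9.27 ± 0.20 (SD, n = 3), overlapped between the times.

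The lower genes encode repressors and output factors of the loop. Ciart (Chrono), a repressor of Arntl, read 7.81, 8.20 and 7.84 at ZT9 and 6.75, 7.26 and 7.23 at ZT21, a difference of -0.87 (standard error 0.19, adjusted p = 0.232). Tef, a factor that binds D-boxes, read 11.04, 11.22 and 11.18 at ZT9 and 10.69, 10.57 and 10.94 at ZT21 (difference -0.41, standard error 0.11, adjusted p = 0.244). Neither overlapped between the times. Nr1d2 (Rev-erb beta) differed by -0.46 (standard error 0.15, adjusted p = 0.277), and replicate 3 of ZT21, at 11.57, was within the range of ZT9. Its second probe set gave -1.29 with a standard error of 0.46 (adjusted p = 0.29), and the other probe sets of Tef gave -0.57 and -0.01. Dbp, another D-box factor, was lower in both of its probe sets, with differences of -0.42 and -0.50 (adjusted p = 0.328 and 0.244). Per3 differed by -0.39 (standard error 0.17, adjusted p = 0.364), and by -0.19 without replicate 2 of ZT9. Nr1d1 differed by -0.57 with a standard error of 0.30 and did not pass. Its replicate 1 of ZT9, at 7.43, lay below the other 2, at 8.57 and 8.36.

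Per2, Per1, Bhlhe40 and the Cry genes did not pass. Per2 read 7.99, 8.02 and 7.99 at ZT9 and 7.70, 8.41 and 7.80 at ZT21, a difference of -0.03 (standard error 0.20). Per1 and Bhlhe40 differed by -0.27 and -0.17 (standard errors 0.26 and 0.16), with overlapping arrays. Cry1 and Cry2 differed by 0.20 and -0.16 (standard errors 0.14 and 0.10). A p that misses the threshold does not show equal levels.

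The late pair of times was also set against the early pair, ZT15 minus ZT3, which shares no array with it. The difference between the pairs was tested in the same fit, and 6 probe sets passed at an adjusted p of 0.05 (0.0244% of those tested). Per2 differed by 3.07 from ZT3 to ZT15 and by -0.03 from ZT9 to ZT21, so that the difference of the 2 was -3.10 (standard error 0.28, adjusted p = 0.00213 from limma). Ciart was higher by 1.78 in the early pair and lower in the late pair, for a difference of -2.65 (standard error 0.27, adjusted p = 0.00317). Dbp gave -2.11 and -2.40 in its 2 probe sets (adjusted p = 0.0013 and 0.00317) and Bhlhe40 -1.66 (adjusted p = 0.0438). Cldn5 alone of the 6 was higher in the late pair and not in the early one, at 1.06 against -0.57, a difference of 1.63 (standard error 0.22, adjusted p = 0.0488). Over the 21 clock genes the median was 0.52 from ZT3 to ZT15 against -0.07 from ZT9 to ZT21. Homer1 was higher in the night in both pairs, by 0.85 and 2.20, and the difference of 1.35 between them did not pass (standard error 0.23, adjusted p = 0.162). Across all tested probe sets the 2 sets of differences correlated at a Pearson's r of 0.20, a description across probe sets, which are not independent.

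**Figure D2:**
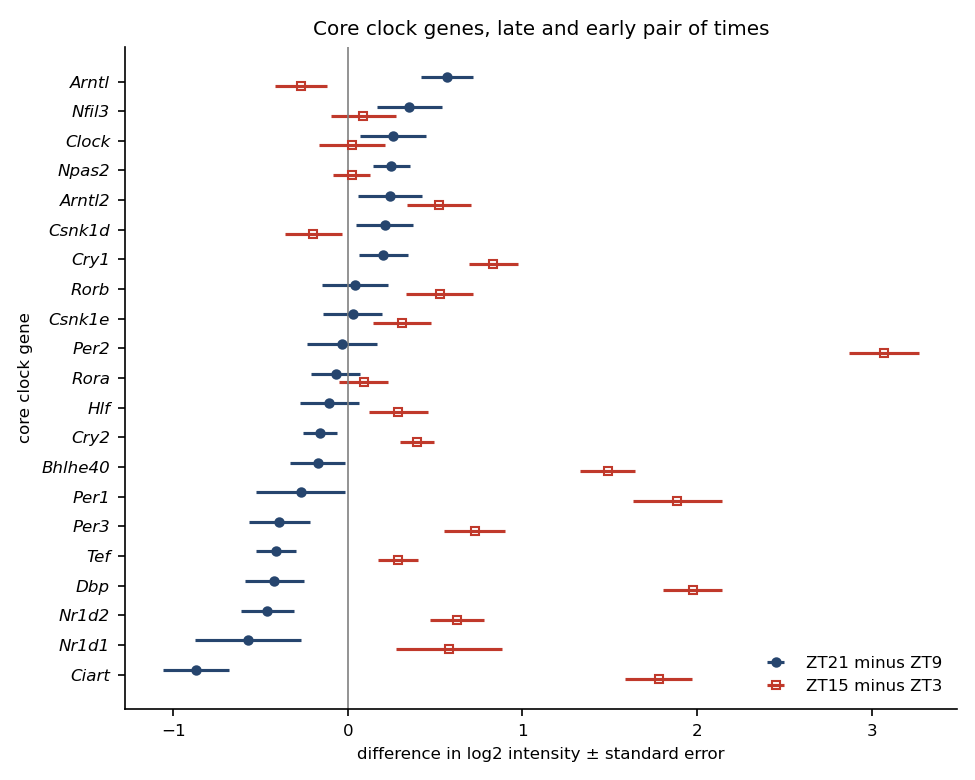
Difference in log2 intensity with its standard error (x axis) of the 21 core clock genes (y axis), for ZT21 minus ZT9 (filled circles) and ZT15 minus ZT3 (open squares), from 3 mice at each time. Arntl lies at 0.57 and Ciart at -0.87 in the late pair, and Per2 lies at 3.07 in the early pair and at -0.03 in the late pair.

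**Figure D3:**
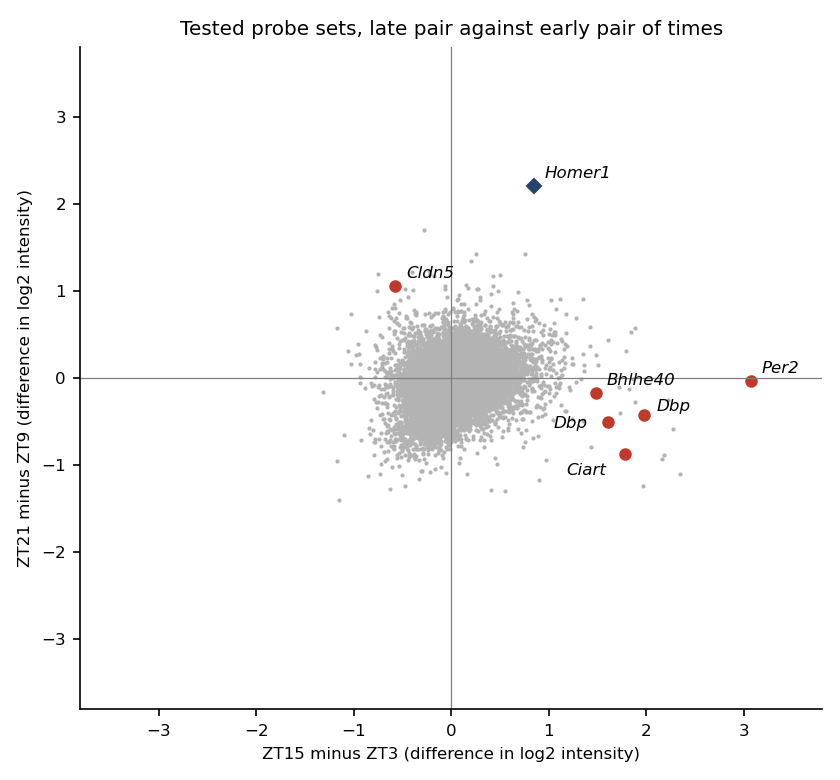
ZT21 minus ZT9 (y axis) against ZT15 minus ZT3 (x axis), each a difference in log2 intensity, for the tested probe sets (grey points). The 6 probe sets whose 2 differences depart from each other are in red, 5 of them at the right with a late difference below 0 and Cldn5 at the upper left, and the diamond is Homer1, at 0.85 and 2.20.

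Among genes that neurons switch on with activity, those that passed were all higher at ZT21. Of 43 measured, 8 were higher (18.6%) and 0 lower by the unadjusted p, with a median difference of 0.14 beside -0.01 over all genes. The 8 are Nptx2, Egr3, Inhba, Bdnf, Vgf, Ier5, Ptgs2 and Dusp4. Nptx2, a pentraxin that gathers glutamate receptors at synapses, read 8.10, 7.82 and 7.53 at ZT9 and 8.56, 8.55 and 8.63 at ZT21 (difference 0.77, standard error 0.16, adjusted p = 0.228). Bdnf, a growth factor of neurons, read 8.06, 7.98 and 7.62 at ZT9 and 8.29, 8.66 and 8.46 at ZT21 (difference 0.58, standard error 0.16, adjusted p = 0.244). Egr3, a transcription factor, read 11.15, 11.46 and 11.14 at ZT9 and 11.88, 11.59 and 11.92 at ZT21 (difference 0.55, standard error 0.15, adjusted p = 0.244). None of these 3 overlapped between the times. Inhba, a subunit of activin, was higher by 0.52, Vgf, the precursor of secreted peptides, by 0.33 and Ier5 by 0.39. Ptgs2, the inducible cyclooxygenase, was higher by 0.91 with a standard error of 0.31. Dusp4, a phosphatase of MAP kinases, was higher by 0.57, but replicate 2 of ZT21, at 7.65, stood above the other 2, at 6.66 and 6.49, and without it the difference was 0.21.

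Fos, Arc, Junb and Nr4a1 did not pass. Their differences were -0.12, -0.58, -0.01 and -0.10, with standard errors of 0.51 to 0.82, too wide to give a direction. Npas4 had the largest difference of the list, 1.17, and its night arrays lay above its day arrays, but its standard error was 0.85. Homer1 enters this list through its brightest probe set (difference 0.19, adjusted p = 0.467), so that the count of 8 does not hold the probe set with the leading difference. With single arrays left out the list gave 7 to 10 higher and 0 lower, or 8 higher and 1 lower without replicate 3 of ZT21. The median moved to 0.05, 0.07 and 0.08 without replicate 2 of ZT21, replicate 3 of ZT21 and replicate 3 of ZT9, to 0.29 without replicate 1 of ZT21, and to -0.08 with array weights, where 10 were higher and 2 lower.

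Genes known to respond to glucocorticoids lay on the other side. Of 25 measured, 0 were higher and 6 lower (24%), with a median difference of -0.09. Fkbp5, a co-chaperone of the glucocorticoid receptor, read 8.75, 8.61 and 8.30 at ZT9 and 8.17, 7.69 and 7.92 at ZT21 (difference -0.63, standard error 0.15, adjusted p = 0.244). Sgk1, a kinase induced by the hormone, read 11.10, 11.08 and 10.98 at ZT9 and 10.26, 10.24 and 10.60 at ZT21 (difference -0.69, standard error 0.25, adjusted p = 0.292). In both the day arrays were all above the night arrays. Mertk, Tsc22d3 (Gilz), Errfi1 and Map3k6 differed by -0.41, -0.46, -0.28 and -0.25. The lower count was between 3, without replicate 1 of ZT21, and 7 when single arrays were left out, and without replicate 1 of ZT9 it was 5 beside 3 higher.

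Neuropeptides were split. Of 17 measured, 3 were higher (17.6%) and 1 lower (5.88%), beside 4.56% and 7.41% of all genes. The 3 were Crh, Vgf and Cck, by 1.00, 0.33 and 0.25. The 1 lower was Penk, the precursor of enkephalins, with a difference of -0.60 (standard error 0.22), and the list gave 0 lower without replicate 1 of ZT9 or replicate 1 or 2 of ZT21. Penk is also in the list of striatal markers, of which 7 were measured, 0 higher, 1 lower and 7 with a difference below 0. Their mean level was 7.53 to 8.08 at ZT9 and 7.48 to 7.66 at ZT21, and its part in the value of Penk was not tested.

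Protein folding genes had few calls, most of them higher. For chaperones of the endoplasmic reticulum and the unfolded protein response it was 4 of 36 higher (11.1%) and 0 lower, with a median of 0.02. They were Sdf2l1, Creld2, Manf and the transcription factor Atf4, between 0.39 and 0.73, with Atf4 at 0.24 without replicate 3 of ZT9. Hspa5, the main chaperone of that compartment, differed by 0.12 (standard error 0.11) and did not pass. Among 27 cytosolic heat shock proteins and their partners 3 were higher (11.1%) and 1 lower (3.7%). Cryab, a small heat shock protein of glia, had the largest difference at 0.70 (standard error 0.20, adjusted p = 0.244), and Hspd1, the chaperonin of mitochondria, was lower with a difference of -0.40. Without replicate 3 of ZT21 these counts became 1 higher and 3 lower in both lists, and without replicate 3 of ZT9 they did as well, so that the direction rests on those arrays. For the endoplasmic reticulum list they were 0 and 0 without replicate 1 of ZT21, 2 and 0 without replicate 2 of ZT21, and 8 and 1 without replicate 1 of ZT9.

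Of the mitochondrial ribosomal proteins, which build the ribosome inside mitochondria, 8 of 76 were higher (10.5%) and 0 lower, and 61 of the 76 had a difference above 0. The median was 0.14. Mrpl28, by a probe set whose probes can match other transcripts, read 9.77, 9.36 and 9.51 at ZT9 and 10.05, 10.02 and 10.03 at ZT21 (difference 0.49, standard error 0.12, adjusted p = 0.244). Mrps11, Mrps18b and Mrpl12 were higher by 0.37, 0.39 and 0.42, and Mrps18b by 0.25 without replicate 2 of ZT21. The count ran from 4 higher without replicate 3 of ZT9 or replicate 2 of ZT21 to 24 higher without replicate 1 of ZT9, with 0 lower in each, and the median fell to 0.01 without replicate 3 of ZT9. Cytosolic ribosomal proteins had 1 of 41 higher and 0 lower, with a median of 0.09. The respiratory chain and ATP synthase had 0 of 77 higher and 2 lower, Ndufs1 and Cox8c, while its median was 0.09.

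Vesicle traffic and nuclear transport held more lower genes than the 7.41% of all genes, a comparison with no test. Of 78 genes of vesicle coats, tethers and sorting, 2 were higher and 13 lower (16.7%), with a median of -0.07. Stx12, a syntaxin of endosomes, read 11.10, 11.42 and 11.19 at ZT9 and 10.44, 10.55 and 10.95 at ZT21 (difference -0.59, standard error 0.15, adjusted p = 0.244). Copg2, of the COPI coat, and Ap3m1, of the AP-3 adaptor, differed by -0.43 and -0.79, and Ap3m1 by -0.52 without replicate 1 of ZT21. Of 46 genes of nuclear import, export and the pore, 0 were higher and 8 lower (17.4%), with Kpna3, an importin, and Xpo6, an exportin, at -0.41 and -0.47. In Stx12 replicate 3 of ZT21 was the closest to the day values. Without that array the counts were 3 higher and 23 lower of 78 and 0 higher and 15 lower of 46, and without replicate 1 of ZT21 they were 2 and 6, and 0 and 3. Without replicate 2 of ZT21 they were 1 and 6, and 0 and 3, and without replicate 2 of ZT9 they were 1 and 6, and 0 and 4. Without replicate 1 of ZT9 the first list gave 5 and 8.

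Synaptic release and receptors gave few and mixed counts, beside 4.56% higher and 7.41% lower among all genes. Of 38 genes of synaptic vesicle release, 1 was higher (2.63%) and 5 lower (13.2%). The 1 higher was Syt5, a synaptotagmin, by 0.27, and the 5 lower were Nsf, Sv2b, Syn2, Syt1 and Syn1. Nsf, the ATPase that takes apart the fusion complex, read 13.33, 13.41 and 13.19 at ZT9 and 12.83, 12.85 and 13.13 at ZT21 (difference -0.37, standard error 0.10, adjusted p = 0.244). Glutamate receptors and their scaffolds gave 4 of 42 higher (9.52%), Nptx2, Cacng2, Dlgap2 and Grik3, and 2 lower (4.76%), Grm5 and Gria1. Cacng2, or stargazin, a partner of AMPA receptors, was higher by 0.31, and Grm5, the metabotropic receptor 5, differed by -0.45. GABA genes gave 0 of 17 higher and 2 lower (11.8%), Gabbr1 and Gad2, at -0.32 and -0.29. Of their differences 13 of 17 were below 0, with a median of -0.17. Voltage-gated sodium and calcium channels gave 0 of 20 higher and 3 lower (15%), led by Cacnb2 at -0.83 (standard error 0.21). Potassium channels gave 2 of 57 each way (3.51%). Synaptic release gave 2 lower without replicate 1 or 2 of ZT21, and GABA genes gave 6 lower without replicate 3 of ZT9, 4 without replicate 3 of ZT21 and 0 without replicate 1 or 2 of ZT21 or replicate 2 of ZT9. The glutamate list turned to 4 higher and 5 lower without replicate 3 of ZT21, and the sodium and calcium channels gave 5 lower without it.

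In signalling and transport, 7 of 49 genes of the cyclic AMP pathway were lower (14.3%) and 2 higher. They were led by Pde1a, a phosphodiesterase that calmodulin activates, at -0.66 (standard error 0.18), and held Prkacb and Prkar1a, subunits of protein kinase A, at -0.36 each. Pkia, the inhibitor of that kinase named above, was lower in 1 probe set, while its brightest differed by -0.17 without passing. The cyclic AMP list gave 0 higher and 2 lower without replicate 1 of ZT21, and its median of -0.03 became 0.03 after quantile normalization. MAP kinases and their phosphatases gave 7 of 50 lower (14.0%) and 2 higher. Mapk8 (JNK1), at -0.68, and Mapk11 (p38 beta), at 0.58 (0.35 without replicate 1 of ZT9), were on opposite sides, and without replicate 2 of ZT9 that list gave 1 higher and 4 lower. Of 34 amino acid carriers 0 were higher and 6 lower (17.6%), with Slc6a15, a carrier of branched-chain amino acids and proline in neurons, at -0.56 (standard error 0.12, adjusted p = 0.228). Without replicate 2 of ZT9 or of ZT21 3 of them were lower, and without replicate 3 of ZT9 9.

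In metabolism, 1 of 28 genes of glycolysis, glucose uptake and lactate was higher (3.57%) and 5 were lower (17.9%). Among all genes 4.56% were higher and 7.41% were lower. Tpi1 was higher by 0.38, and Pfkl, Pfkp, Pfkfb2, Pgk1 and the neuronal glucose transporter Slc2a3 had differences of -0.31 to -0.24. Cholesterol genes gave 1 of 26 higher (3.85%) and 4 lower (15.4%). Sqle, Hmgcs1, Sc5d and Msmo1, of cholesterol synthesis, had differences of -0.44, -0.28, -0.53 and -0.27, and Tm7sf2, a sterol reductase, was higher by 0.65. Splicing and cold-inducible proteins gave 2 of 54 higher (3.7%) and 7 lower (13%). Cirbp, a protein that rises in the cold, read 9.78, 10.13 and 9.93 at ZT9 and 9.50, 9.62 and 9.51 at ZT21 (difference -0.40, standard error 0.11, adjusted p = 0.244). Clk1, a kinase of splicing factors, and Ptbp2, a splicing factor of neurons, differed by -0.59 and -0.54, and Hnrnpm was higher by 0.35. The splicing list gave 1 higher and 16 lower without replicate 3 of ZT21, 1 and 14 without replicate 3 of ZT9, 1 and 3 without replicate 1 of ZT21 and 2 and 3 without replicate 2 of ZT9, and its median of -0.06 lay at 0.00 after quantile normalization. Glycolysis gave 1 higher and 1 lower without replicate 1 of ZT9 or replicate 2 of ZT21, and cholesterol genes did so without replicate 2 of ZT9 or replicate 1 of ZT21.

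Further function lists lay near or below the background on the lower side and below it on the higher side. Zinc finger proteins named Zfp gave 9 of 257 higher and 22 lower (8.56%), but 19 and 12 without replicate 1 of ZT9 and 6 and 42 without replicate 3 of ZT21. Rab GTPases gave 1 and 4 of 50, translation factors 1 and 4 of 56, and kinesins and dyneins 0 and 3 of 43. Ubiquitin enzymes gave 1 and 2 of 29, histone modifiers 1 and 2 of 60, aminoacyl-tRNA synthetases 0 and 1 of 19, proteasome subunits 0 and 1 of 35, Kruppel-like factors 0 and 1 of 14, and adenosine genes 0 and 0 of 7. Apart from these lists, of 30 measured genes that the study names in its results, 8 were higher and 2 lower, Dbp and Gpc6. Among all genes 4.56% were higher and 7.41% lower. The 8 were Arntl, Cacng2, Dusp4, Sult4a1, Camk1g, Ier5, Sbk1 and Rnd2. The study chose most of these on the same arrays, so that they are not independent evidence of a direction. In its real-time PCR of other mice, Arntl, Cacng2, Dusp4, Camk1g, Ier5, Sbk1 and Gpc6 had patterns similar or identical to the arrays. Sult4a1 showed no cycling there, and that PCR covered all 4 times, not this pair alone.

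**Figure D4:**
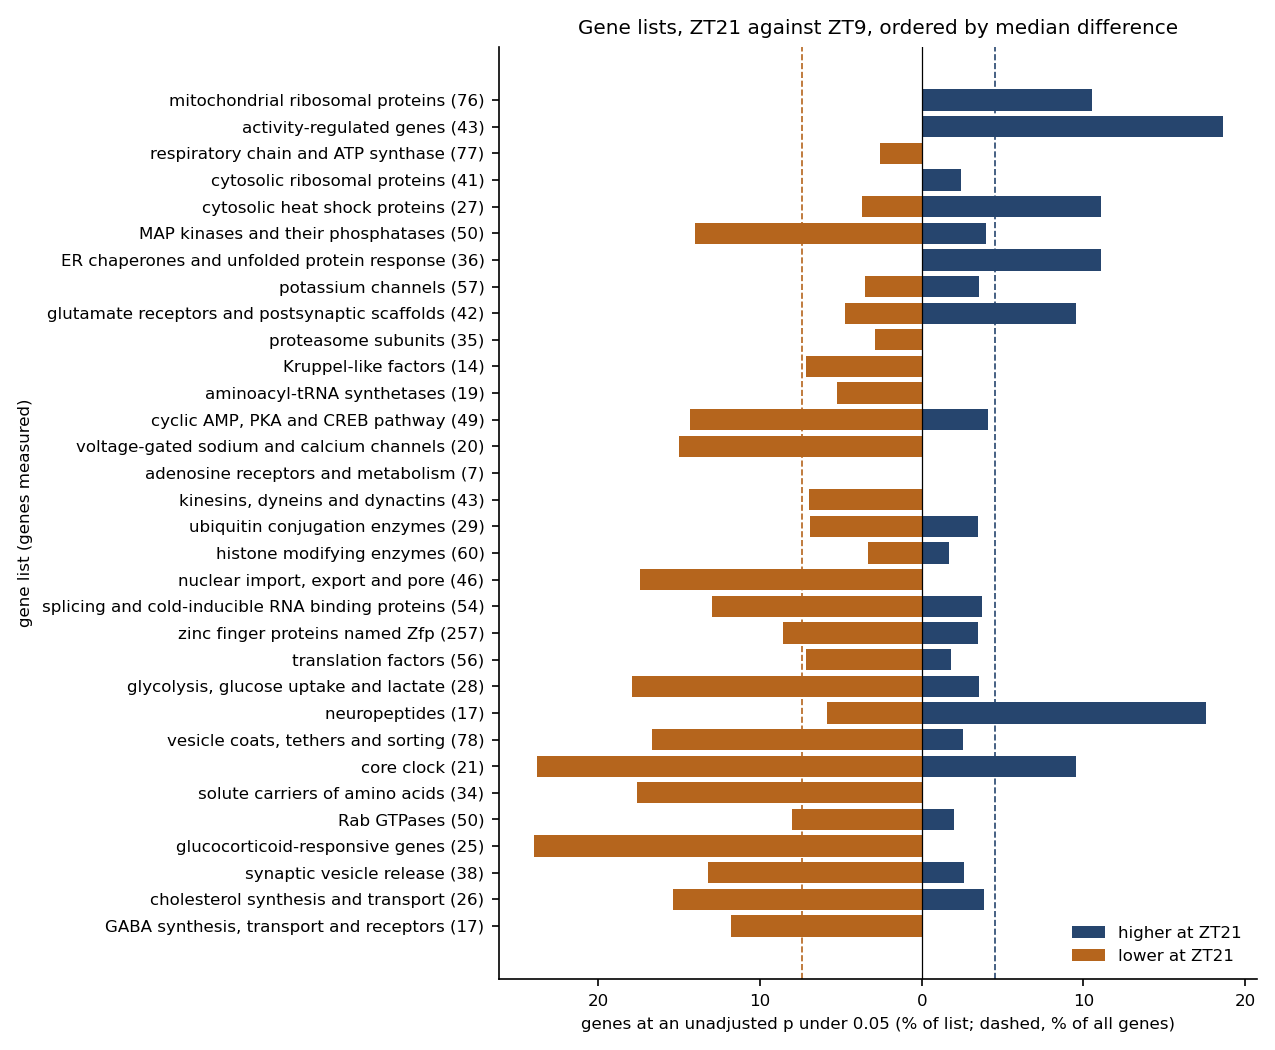
Share of each gene list (percent, x axis) higher at ZT21 (blue, to the right) and lower (brown, to the left) at an unadjusted p under 0.05, with lists on the y axis ordered by median difference and the number of genes measured in brackets. Dashed lines mark the shares of all genes, 4.56% and 7.41%, and the activity-regulated genes reach 18.6% on the right while the core clock and the glucocorticoid-responsive genes reach 23.8% and 24% on the left.

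Markers of the labelled tissue were at high levels on average. Emx1 among them was faint, with means of 5.03 at ZT9 and 5.07 at ZT21, where the lowest mean tested was 4.87. The 8 markers of excitatory cortical neurons that were measured had a mean log2 intensity of 10.46 to 10.66 at ZT9 and 10.43 to 10.67 at ZT21, and 0 of 8 differed. Myelin, at 10 markers, and astrocytes, at 12, differed in 0 and 1. Microglial markers gave 3 of 12 higher (25%), C1qa, C1qb and Tyrobp, and 2 lower (16.7%), P2ry12 and Trem2. With single arrays left out they gave 1 to 4 higher and 1 or 2 lower. Of 9 choroid plexus markers on the array 3 were measured, and Ttr (transthyretin) read 10.92, 10.77 and 14.82 at ZT9 and 10.53, 10.79 and 12.40 at ZT21. Replicate 3 of ZT9 thus held many times more of it than the other 5. In exact permutation tests of the mean levels of all 14 marker lists, 2-sided, the smallest p was 0.3, where 3 arrays against 3 cannot go below 0.1. Arrays differed in other ways too. The log2 ratio of the 3′ to the 5′ control probe set of Actb, a sign of RNA quality, was 0.95, 0.69 and 0.70 at ZT9 and 0.79, 0.79 and 0.88 at ZT21. Mean intensity was 398, 394 and 347 at ZT9 and 347, 347 and 395 at ZT21. On the first principal component, which held 39% of the variance, replicate 1 of ZT9 stood at 33.5 against -6.87 and -20.7 for the other 2 arrays of that time, and the same array had the highest Actb ratio. On the second, which held 18.9% of the variance, replicates 1 and 2 of ZT21 stood at 28.4 and 28.7 and replicate 3 at -8.27, within the range of ZT9, -27.8 to -1.32.

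**Figure D5:**
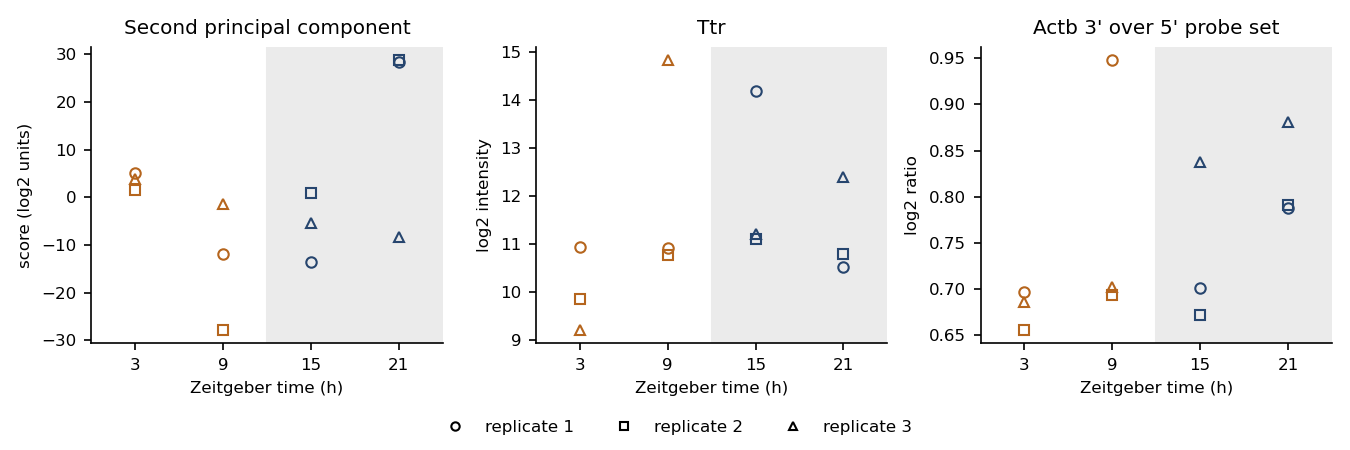
Score on the second principal component of the tested probe sets (left), log2 intensity of the choroid plexus marker Ttr (middle) and log2 ratio of the 3′ to the 5′ control probe set of Actb (right), each on the y axis, by Zeitgeber time in hours (x axis, dark hours shaded). Points are single mice, marked by replicate. Replicate 3 of ZT21 lies at -8.27 on the component and apart from replicates 1 and 2, and replicate 3 of ZT9 lies highest for Ttr, at 14.82.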

How the data were processed

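Affymetrix Mouse430_v2 arrays were hybridised with cortical RNA of 12 mice, 3 for each of 4 times. Per probe set the authors deposited an intensity on a linear scale, made from the scans by GCRMA, and took detection calls from MAS 5.0, which are not analysed here. Values were taken as log2 and the 64 control probe sets were left out of the tests. Of the other 45037 probe sets, 34945 carry 1 gene symbol, 932 several and 9160 none, and symbols were matched through 34741 reference entries. Detection calls being absent from the table used, the 24546 probe sets with the highest mean were tested, as many as the authors kept. They hold 54.5% of all, and fainter ones are not covered. The number of arrays limits the precision.

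A single model of all 12 arrays was fitted with limma 3.58.1 in R 4.3.3 (lmFit, eBayes), with ZT21 minus ZT9, ZT15 minus ZT3 and their difference as contrasts, 2-sided. Every p in the text that is called adjusted is limma's, corrected after Benjamini and Hochberg across the whole tested set. SD is over 3 mice, and standard errors are from the fit. A gene is represented by its brightest probe set unless another is named. Named genes are the probe sets at an adjusted p under 0.20, the 12 largest differences each way among genes with an unadjusted p under 0.05 and arrays that do not overlap, up to 4 genes of each list with the smallest p, all core clock genes and those the study names, and any other gene was chosen after its values were seen. The members and lists were chosen with earlier results of these data known. Promoter windows came from RefSeq (GRCm38.p6). Code was tested on simulated data. Figures used Python 3.11.15, pandas 2.3.3 and matplotlib 3.10.9. The alternatives were 2 scalings, 2 filters, an offset of 16, the 6 arrays alone, 2 variance models, array weights, the replicate block and each array left out. Chosen after seeing the data were leaving out the 3 arrays with the highest Actb ratio and using that ratio as a covariate.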

Additional observations from a re-analysis of the deposited data

Results flagged for a closer look

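The difference from ZT9 to ZT21 departed from the difference from ZT3 to ZT15 in 6 probe sets of 5 genes, by limma's test of the difference of the 2 differences at an adjusted p of 0.05. It was -3.10 for Per2, -2.65 for Ciart, -2.11 and -2.40 for the 2 probe sets of Dbp, and -1.66 for Bhlhe40, each of which was higher at ZT15 than at ZT3 and at or below the ZT9 level at ZT21. It was 1.63 for Cldn5, lower at ZT15 than at ZT3 and higher at ZT21 than at ZT9. When single arrays were left out, 4 to 8 probe sets passed.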

How the results depend on the processing

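Homer1 was higher at ZT21 under every alternative run, by 2.06 to 2.53, with an adjusted p of 7.37e-06 to 0.107, the highest when only the 6 arrays of ZT9 and ZT21 were fitted. The 10 transcripts at an adjusted p under 0.20 kept their direction in all 237 values under the alternatives and stayed under 0.20 in 128.

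Counts moved far more. At an adjusted p under 0.05, 1 in the text, they were 2 after quantile normalization, 3 among the 15000 brightest, 0 with the 6 arrays (797 higher and 1510 lower by an unadjusted p under 0.05), 4483 with array weights, 2157 without the 3 arrays of highest Actb ratio and 6 with that ratio as a covariate. At 0.20, 10 in the text, they were 1134 (558 higher, 576 lower) after quantile normalization, 3 after median centring, 40 with no filter, 658 among the 15000 brightest, 16 with the offset, 2 with the 6 arrays, 4 with a trend and robust prior, 2 without moderation, 9460 with array weights, 6728 without the 3 arrays and 2495 with the covariate. By the unadjusted p, higher counts were 1874 after quantile normalization, 661 among the 15000 brightest, 2396 with array weights and 2132 without the 3 arrays, and lower counts 5788 and 4343 in the last 2 settings. Departures from the early pair numbered 1 without moderation, 2834 with array weights and 36 without the 3 arrays. The cause was not tested.

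Single arrays left out gave 1 to 93 at 0.05, 1 to 3842 at 0.20, 661 to 1942 higher and 1022 to 3848 lower by the unadjusted p. Without replicate 3 of ZT21 the counts were 93, 3842 and 3848, without replicate 1 of ZT21 661 and 1022, without replicate 1 of ZT9 1942 higher and 2951 at 0.20, without replicate 3 of ZT15 763 at 0.20, and without replicate 2 of ZT9 or of ZT21 1087 and 1110 lower. With the replicate block 1 passed at 0.20. Same-numbered arrays of ZT9 and ZT21 correlated at -0.00795, -0.142 and -0.379 after group means were removed. With 3 arrays a time this cannot show whether a replicate number stands for a shared batch. Fainter probe sets and small differences are beyond 3 arrays a time.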
